A study of Homo sapiens with 15 samples.

Results

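The genes described here are the regulators of the sterol regulatory element-binding proteins (SREBPs) together with genes of sterol handling: SREBF1, SREBF2, SCAP, INSIG1, INSIG2, MBTPS1, MBTPS2, STARD4 and ACAT2. These 9 symbols form a list by function, drawn up with earlier results of these data known, and were looked up among the 18485 symbols of the count table; the rule itself uses no measured value. All 9 had a row, and 7 held enough counts to be among the 6767 genes tested. MBTPS1 and MBTPS2 did not, and are given as counts. They were read in SNB19, a human glioblastoma cell line, in 15 libraries of polyadenylated RNA sequenced as PCR-amplified cDNA on the Oxford Nanopore platform. All cells were grown in DMEM with 10% serum and transduced with lentivirus from the pCHMWS vector. There were 3 libraries in each of 5 groups: the full-length form (FL) of ZBTB18, a zinc finger transcriptional repressor, its mutant (FL-mut), the short form called SF-Nte, the mutant of that short form (SF-mut), and the empty vector (EV). The labels give neither the mutated residues nor the time after transduction, and do not say whether replicates were separate cultures, so the spread behind each p-value is that of these libraries and may be technical.

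SREBPs are made as membrane proteins of the endoplasmic reticulum, where each is held by its escort SCAP. When sterols are low, SCAP carries the SREBP to the Golgi, the site-1 and site-2 proteases cut it, and the freed part enters the nucleus and switches on genes of cholesterol and fatty acid synthesis. When sterols are high, INSIG1 and INSIG2 bind SCAP and keep the complex in the endoplasmic reticulum. INSIG1 and SREBF2 are themselves SREBP targets, and SREBF2 codes for the form that acts mainly on cholesterol genes. Glioblastoma cells are known for their demand for cholesterol.

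The promoter stretches of the 3 tested members that hold a CCAAT box, which NF-Y binds and which often stands beside sterol elements, are shown because the levels of these members bear on the results below. Each runs from the start of the RefSeq window to the base before the first GENCODE exon, read 5′ to 3′ on the gene's strand in GRCh38.p14. Capitals mark matches to CCAAT, to GGGCGG (the SP1 box) and to TCACNCCAC (a form of the sterol regulatory element), on either strand. The INSIG1 stretch is chr7:155297628-155297775 on the plus strand, that of STARD4 chr5:111512591-111512785 on the minus strand, and that of SREBF2 chr22:41832855-41833078 on the plus strand.
INSIG1: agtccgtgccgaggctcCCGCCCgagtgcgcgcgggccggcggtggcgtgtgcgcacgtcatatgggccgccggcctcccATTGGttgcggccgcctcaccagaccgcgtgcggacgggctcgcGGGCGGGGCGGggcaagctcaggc
STARD4: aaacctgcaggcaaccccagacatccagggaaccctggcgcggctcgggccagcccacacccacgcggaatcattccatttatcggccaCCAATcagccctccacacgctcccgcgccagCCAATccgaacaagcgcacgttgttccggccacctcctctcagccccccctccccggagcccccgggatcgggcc
SREBF2: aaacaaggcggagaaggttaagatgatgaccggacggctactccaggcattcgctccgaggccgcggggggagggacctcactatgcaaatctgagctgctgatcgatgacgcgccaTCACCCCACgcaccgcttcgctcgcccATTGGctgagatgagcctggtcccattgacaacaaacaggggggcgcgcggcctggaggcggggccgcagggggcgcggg
RefSeq promoters were matched for 8 of the 9 members. In the 250 bases before the start, SREBF2 held TCACNCCAC, 133 bases upstream, which 0.883% of 35116 promoters and 0.854% of the 8084 promoters of tested genes hold. CCAAT stood in the windows of INSIG1, STARD4 and SREBF2, against 32% of all promoters and 34.6% of those of tested genes, and GGGCGG in those of INSIG1, INSIG2, SCAP, STARD4, SREBF1 and SREBF2, against 42.6% and 62.4%. The letters CATCTG, the core of the ZBTB18 site, stood in no member's window and in 12.2% of all promoters and 8.33% of those of tested genes. Neither MBTPS1 nor MBTPS2 held any of these letters. Among these matches only a pair of SP1 boxes of INSIG1 overlap, and GGGCGG matches nearer the start of each gene lie outside the printed stretches. Of the 16 genes of the cholesterol synthesis list below with a promoter here, 0 held TCACNCCAC, 13 held CCAAT, 14 held GGGCGG and 1 held CATCTG. A match describes letters in this window, not a site in use, and the lack of a match does not show that a gene lacks a sterol element.

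Total counts per library ranged from 803316 to 1393060 in FL, 865997 to 1313573 in FL-mut, 432611 to 603155 in SF-Nte, 315693 to 597414 in SF-mut and 1274474 to 1930245 in EV. Levels are CPM, counts scaled to the library's total with TMM factors. A count of 0 allows up to 3 counts, which is 2.08 to 3.73 CPM in FL, 4.90 to 9.25 CPM in SF-mut and 1.5 to 2.67 CPM in EV, for counting error only. SF-mut replicate 2, the shallowest library, had 0 counts for 6 of the 9 members. Barcode names of SF-mut repeat those of EV with a suffix on a separate sample sheet, so SF-mut and any separate handling cannot be told apart. ZBTB18 was at 623 to 3067 CPM in FL, 907 to 6858 in FL-mut, 199 to 470 in SF-Nte, 853 to 3631 in SF-mut and 4.37 to 7.12 in EV, as the labels say. Its log2 difference was -2.26 ± 0.76 for SF-Nte against FL (edgeR adjusted p = 0.189). For SF-mut against SF-Nte it was 2.57 ± 0.77 (edgeR adjusted p = 0.574). The part of the ZBTB18 level in the contrasts between forms or mutants below was not tested. Of the glioma and astrocyte markers, VIM and CD44 were high, while GFAP reached at most 7.53 CPM and S100B at most 4.16 CPM. Markers of immune, epithelial, endothelial and neuronal cells summed to at most 30.8 CPM per list in any library. In bulk RNA, fewer cells of a type and less RNA per cell cannot be told apart.

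INSIG1 (chr7:155297776-155310235), the INSIG whose own transcript follows SREBP activity, was the member whose level differed among the 5 groups. It stood at 30.5, 136.8 and 150.0 CPM in FL libraries, at 25.2, 10.2 and 38.3 CPM in FL-mut, at 0, 15.1 and 4.98 CPM in SF-Nte, at 9.80, 0 and 4.10 CPM in SF-mut, and at 4.5, 8.74 and 15.1 CPM in EV. All FL libraries lay above all EV libraries, as for 8.75% of tested genes, and above all SF-Nte libraries, as for 14.6%. FL replicate 1 lay below FL-mut replicate 3. Group means were 105.8 ± 65.5 CPM under FL, 24.6 ± 14.1 under FL-mut, 6.68 ± 7.67 under SF-Nte, 4.63 ± 4.92 under SF-mut and 9.46 ± 5.35 under EV (SD, n = 3 each). The test of any difference among the groups gave an adjusted p of 0.040 (edgeR's quasi-likelihood F test with Benjamini-Hochberg adjustment, F = 9.60). It was 1 of 7 members called, against 1.12% of all tested genes. With the replicate number as a block the adjusted p was 0.057, above the threshold of 0.05. Of the 15 fits that left out 1 library each, 6 kept the call, and the adjusted p was highest without FL replicate 2 or 3 (0.162 and 0.168). The call was also lost without EV replicate 1 or 2, FL-mut replicate 1 or 3, SF-Nte replicate 1 or 3, or SF-mut replicate 3, at 0.053 to 0.082. The test does not say which groups differed.

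**Figure D1:**
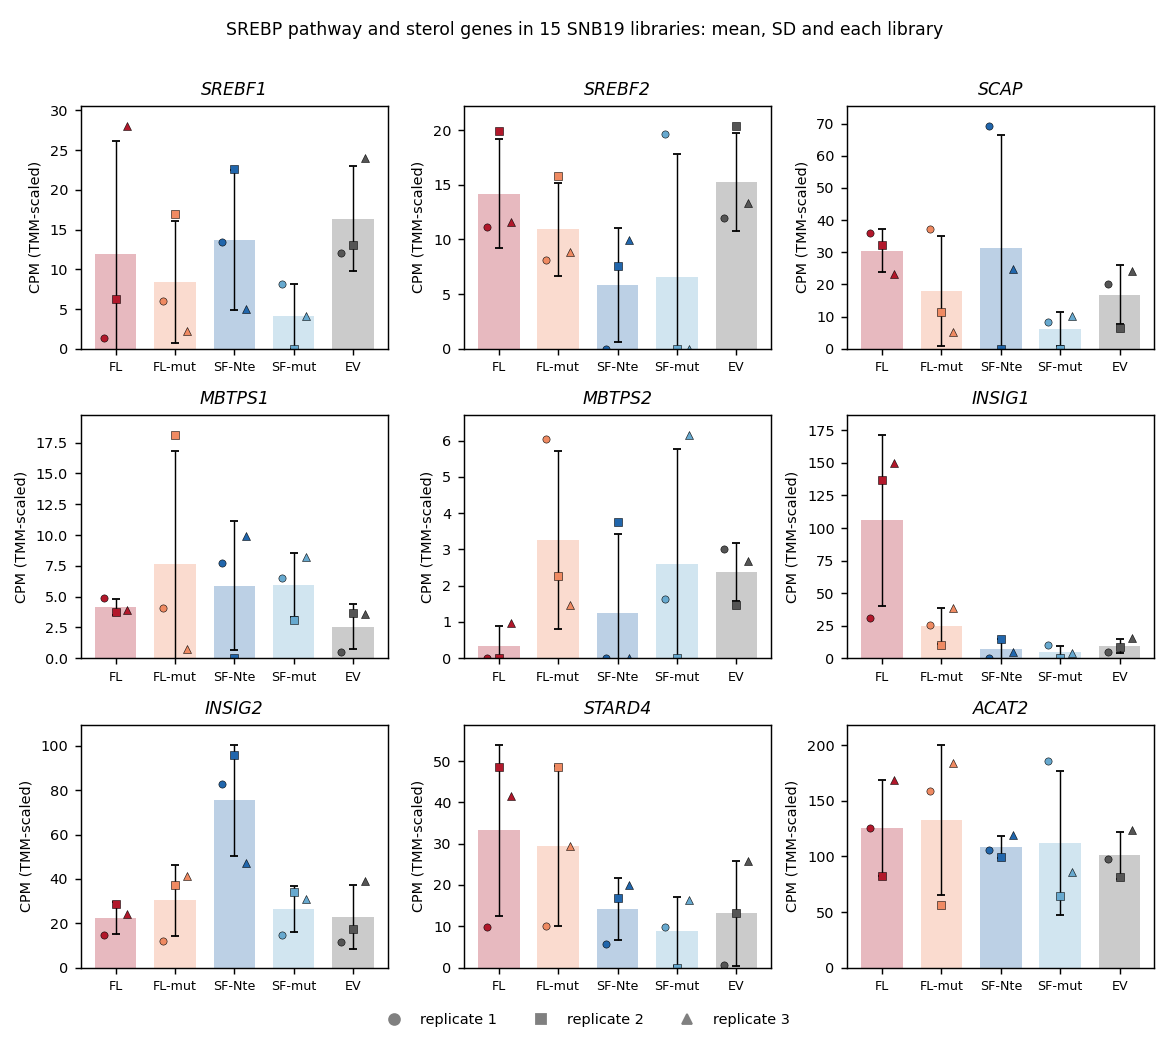
Level of each of the 9 genes in CPM (TMM-scaled counts, linear axes from 0) in FL, FL-mut, SF-Nte, SF-mut and EV. Points are libraries, bars group means and lines 1 SD, cut at 0; INSIG1 is highest in FL replicates 2 and 3, and INSIG2 in the 3 SF-Nte libraries.

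Between pairs of groups, INSIG1 was farthest apart for SF-Nte against FL and for FL against EV, and neither pair passed the test over all genes. In FL against EV the log2 fold change was 3.49 ± 0.88 (SE, 95% interval 1.63 to 5.36), an 11.2-fold difference with an edgeR adjusted p of 0.131 and an unadjusted p of 0.0011. The libraries did not overlap, FL above EV, which also held for 8.75% of tested genes. With the replicate number as a block, INSIG1 was not called in this pair either. In FL-mut against EV the log2 fold change was 1.41 ± 0.84 (adjusted p = 0.578 in edgeR). The wild-type and mutant full-length groups were not shown to differ, at a log2 difference of -2.08 ± 0.82 for FL-mut against FL (interval -3.82 to -0.34, edgeR adjusted p = 0.352).

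INSIG1 levels were lower in each short form than in the matching full-length form, without passing the test. In SF-Nte against FL the log2 difference was -3.93 ± 0.96 (interval -5.98 to -1.88, edgeR adjusted p = 0.068), with every SF-Nte library below every FL library, as for 14.6% of tested genes. In SF-mut against FL-mut it was -2.22 ± 0.98 (adjusted p = 0.476 in edgeR), again without overlap, as for 8.02% of tested genes. Against EV, SF-Nte and SF-mut gave log2 fold changes of -0.44 and -0.81 (edgeR adjusted p = 0.949 and 0.997). These rest on 10 counts in the 3 SF-Nte libraries and 8 counts in the 3 SF-mut libraries, against 38 in EV. In order, group means ran FL, FL-mut, EV, SF-Nte and SF-mut, and no neighbours in this order differed past the threshold. The glioma and astrocyte markers summed to 197 to 445 CPM in FL, 582 to 872 in FL-mut and 473 to 1015 in EV. In SF-Nte they summed to 874 to 1018 CPM and in SF-mut to 890 to 1150. By group the sum was lowest in FL, where the INSIG1 mean was highest. By library the lowest sum was in FL replicate 2, and the highest INSIG1 level in FL replicate 3. VIM, at a mean of 226 CPM in FL and 547 in EV, made up much of the sum. The part of these markers in the INSIG1 level was not tested.

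INSIG2 (chr2:118088452-118110997), the INSIG that is not an SREBP target in the way INSIG1 is, had another pattern and was highest in SF-Nte. It stood at 14.6, 28.6 and 24.2 CPM in FL, at 12.1, 37.3 and 41.3 CPM in FL-mut, at 82.8, 96.0 and 47.3 CPM in SF-Nte, at 14.7, 33.9 and 30.8 CPM in SF-mut, and at 11.5, 17.5 and 39.2 CPM in EV. All 3 SF-Nte libraries lay above the other 12, which held for 1.05% of tested genes. The log2 fold change of SF-Nte against EV was 1.75 ± 0.58 (interval 0.52 to 2.97, edgeR adjusted p = 0.599, unadjusted p = 0.0083), where 6% of tested genes had all SF-Nte libraries higher. Against FL, SF-Nte was 1.76 ± 0.58 higher on the log2 scale (edgeR adjusted p = 0.178), without overlap, as for 9.86% of tested genes.

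INSIG2 levels in SF-mut lay below those in SF-Nte, without passing the test. SF-mut against SF-Nte gave a log2 difference of -1.54 ± 0.60 (edgeR adjusted p = 0.574), with all SF-mut libraries lower, as for 6.62% of tested genes. The mutation difference was lower in the short form than in the full-length form by 1.98 ± 0.83 on the log2 scale, at an edgeR adjusted p of 0.997 and an unadjusted p of 0.030. No INSIG2 comparison, nor the test over the 5 groups (adjusted p = 0.245 in edgeR), passed the threshold.

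Set against each other within a library, the INSIG transcripts differed in order between groups. Per count of INSIG2 FL libraries had 2.10, 4.78 and 6.20 counts of INSIG1, FL-mut libraries 2.08, 0.273 and 0.929, SF-Nte libraries 0, 0.157 and 0.105, SF-mut libraries 0.667, 0 and 0.133, and EV libraries 0.391, 0.50 and 0.386. INSIG1 outnumbered INSIG2 in every FL library and in FL-mut replicate 1. The SF-Nte ratios rest on 0, 8 and 2 counts of INSIG1, whose level in SF-Nte against EV did not pass the test. This count ratio does not correct for transcript length, and was not tested.

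**Figure D2:**
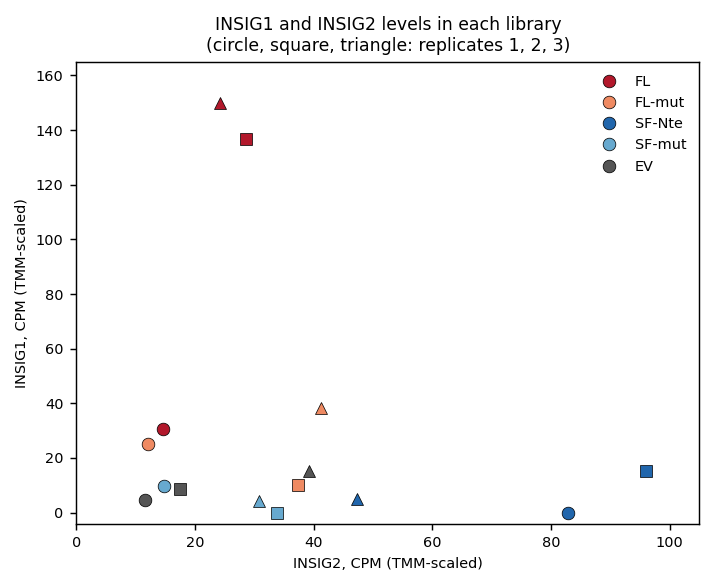
INSIG1 level against INSIG2 level, both in CPM (TMM-scaled), for the 15 libraries, with colour for the group and shape for the replicate. FL replicates 2 and 3 stand apart along the INSIG1 axis and the 3 SF-Nte libraries along the INSIG2 axis.

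SREBF1 and SREBF2, which code for the SREBPs, were low throughout, and neither differed between groups past the threshold. SREBF1 (chr17:17810399-17837002), whose main form acts on fatty acid genes, stood at 1.39, 6.22 and 28.1 CPM in FL, at 6.06, 17.0 and 2.21 CPM in FL-mut, at 13.5, 22.6 and 4.98 CPM in SF-Nte, at 8.17, 0 and 4.10 CPM in SF-mut, and at 12, 13.1 and 24.0 CPM in EV. FL alone spanned the whole range of the other groups but the 0. The SF-mut libraries lay below all EV libraries, as for 7.68% of tested genes, with a log2 fold change of -1.82 ± 1.10 (edgeR adjusted p = 0.942). The mean of the 4 construct groups against EV was -0.87 ± 0.73 on the log2 scale (interval -2.42 to 0.68, edgeR adjusted p = 0.9998).

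SREBF2 (chr22:41833079-41907308) had similar ranges in FL and EV. It stood at 11.1, 19.9 and 11.6 CPM in FL, at 8.08, 15.8 and 8.85 CPM in FL-mut, at 0, 7.53 and 9.96 CPM in SF-Nte, at 19.6, 0 and 0 CPM in SF-mut, and at 12, 20.4 and 13.4 CPM in EV. The SF-Nte libraries lay below all EV libraries, as for 11.3% of tested genes. The SF-Nte difference from EV was -1.40 ± 1.08 on the log2 scale (edgeR adjusted p = 0.843), with 8 counts in the 3 SF-Nte libraries. For the 4 construct groups together against EV it was -0.76 ± 0.74 (interval -2.33 to 0.81, edgeR adjusted p = 0.9998). The host genes of the microRNAs MIR33A and MIR33B are SREBF2 and SREBF1, and neither microRNA had a row of its own.

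SCAP (chr3:47413694-47477126), the escort of the SREBPs, varied as much within groups as between them. It stood at 36.1, 32.3 and 23.2 CPM in FL, at 37.4, 11.3 and 5.16 CPM in FL-mut, at 69.3, 0 and 24.9 CPM in SF-Nte, at 8.17, 0 and 10.3 CPM in SF-mut, and at 20.004, 6.56 and 24.0 CPM in EV. The SF-Nte libraries held both its highest level and a 0. The largest difference between groups compared was SF-mut against SF-Nte, at -2.22 ± 1.15 on the log2 scale (interval -4.66 to 0.21, edgeR adjusted p = 0.633).

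MBTPS1 (chr16:84053761-84116906) and MBTPS2 (chrX:21839636-21885424), which code for the site-1 and site-2 proteases, had too few counts to pass the filter. FL libraries had 7, 3 and 4 counts of MBTPS1, FL-mut libraries 4, 16 and 1, SF-Nte libraries 4, 0 and 4, SF-mut libraries 4, 1 and 4, and EV libraries 1, 5 and 4. FL libraries had 0, 0 and 1 counts of MBTPS2, FL-mut libraries 6, 2 and 2, SF-Nte libraries 0, 2 and 0, SF-mut libraries 1, 0 and 3, and EV libraries 6, 2 and 3. At most 16 counts stood behind any of these values. MBTPS2 was at 0 to 0.968 CPM in FL, against 1.46 to 3.0 CPM in EV. The counts of 0 in FL replicates 1 and 2 allow up to 2.08 and 3.73 CPM, so these levels cannot be told apart. In the fit with no filter neither gene passed in any contrast, and the lowest edgeR adjusted p was 0.806 for MBTPS1 and 0.652 for MBTPS2. MBTPS2 overlaps YY2 on the same strand, and YY2 was at most 1.78 CPM in any library.

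STARD4 (chr5:111496033-111512590), a carrier of cholesterol between membranes and an SREBP target, had its highest levels in full-length libraries, with overlap between full-length and EV libraries. It stood at 9.71, 48.5 and 41.6 CPM in FL, at 10.1, 48.7 and 29.5 CPM in FL-mut, at 5.78, 16.9 and 19.9 CPM in SF-Nte, at 9.80, 0 and 16.4 CPM in SF-mut, and at 0.50, 13.1 and 25.8 CPM in EV. Replicate 1 was the lowest library in FL, FL-mut, SF-Nte and EV, and FL lay above EV in each of the 3 same-number pairs. The log2 fold change against EV was 1.35 ± 0.98 in FL (interval -0.74 to 3.44, edgeR adjusted p = 0.854; 1.61 ± 0.82 with the replicate block, adjusted p = 0.632) and 1.19 ± 0.98 in FL-mut (edgeR adjusted p = 0.715). SF-mut against FL-mut gave -1.65 ± 1.07 (edgeR adjusted p = 0.691).

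ACAT2 (chr6:159760328-159779055) codes for the cytosolic acetoacetyl-CoA thiolase, the first step of the mevalonate pathway; it is not the sterol acyltransferase for which the same name is used. It was the member closest to level across groups, at 125.5, 82.1 and 168.4 CPM in FL, 158.6, 56.6 and 184.3 CPM in FL-mut, 105.9, 99.7 and 119.5 CPM in SF-Nte, 186.3, 64.7 and 86.1 CPM in SF-mut, and 97.5, 81.6 and 123.8 CPM in EV. Every construct group overlapped EV. The log2 fold change against EV was 0.31 ± 0.46 in FL (interval -0.65 to 1.28, edgeR adjusted p = 0.955) and 0.40 ± 0.46 in FL-mut (interval -0.56 to 1.37, edgeR adjusted p = 0.801). ACAT2 overlaps TCP1 by 558 bases and SOD2 by 2202 bases on the opposite strand, and the use of strand in counting is not given in the sources used here. TCP1 was at 246 ± 84.9 CPM in FL and 410 ± 246 CPM in EV, and SOD2 at 371 ± 237 CPM in FL and 356 ± 89.2 CPM in EV (SD, n = 3 each), so reads from them cannot be told apart from those of ACAT2 in the shared bases.

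**Figure D3:**
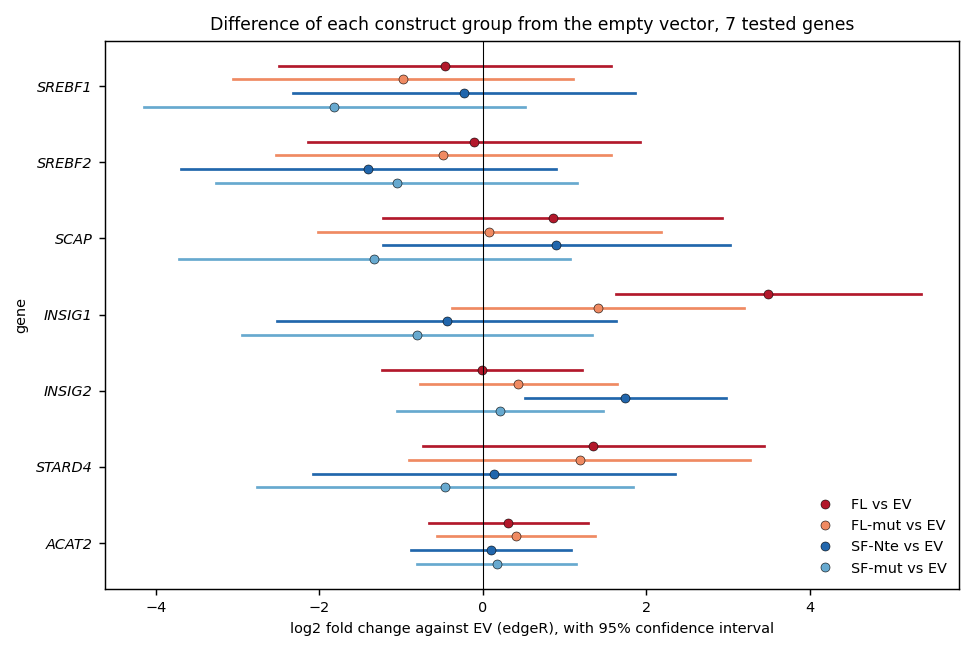
Log2 fold change of FL, FL-mut, SF-Nte and SF-mut against EV for the 7 tested members, as points with 95% confidence intervals from edgeR. The interval lies above 0 for INSIG1 in FL (1.63 to 5.36) and for INSIG2 in SF-Nte (0.52 to 2.97), and spans 0 for the other members and groups shown.

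Over the 10 contrasts, edgeR called 0 of the 7 tested members in each. The share of all tested genes called was 0.31% in FL against EV, 0.192% in FL-mut against EV, 0.0443% in SF-Nte against EV and 0.0591% in SF-mut against EV. It was 0.0887% in FL-mut against FL, 0% in SF-mut against SF-Nte, 1.06% in SF-Nte against FL and 0.163% in SF-mut against FL-mut, 0.222% for the 4 construct groups against EV and 0.0296% for the difference of the mutation effects. At an unadjusted p under 0.05, INSIG1 was the member in FL against EV, beside 7.64% of tested genes, and INSIG2 in SF-Nte against EV, beside 7.23%. There was 1 member in FL-mut against FL (12.1% of tested genes), in SF-mut against SF-Nte (8.33%), in SF-mut against FL-mut (9.66%) and for the difference of the mutation effects (4.65%). There were 2 in SF-Nte against FL (13.2%), and 0 in FL-mut against EV (10.5%), in SF-mut against EV (5.36%) and for the 4 construct groups against EV (5.33%). DESeq2 called INSIG1 in FL against EV, where it called 1.89% of tested genes, in SF-Nte against FL (4.37%) and over the 5 groups (9.63%). It called 0 members in FL-mut against EV (2.14%), SF-Nte against EV (0.355%), SF-mut against EV (0.369%), FL-mut against FL (1.66%), SF-mut against SF-Nte (0.0591%), SF-mut against FL-mut (1.46%), the 4 construct groups against EV (0.488%) and the difference of the mutation effects (0.118%). The comparisons against EV share the EV libraries.

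Of the enzymes of cholesterol synthesis, a list of 20 of which 17 were tested, 16 lay above 0 in FL against EV and 16 in FL-mut against EV. The median log2 fold change was 1.42 in FL and 1.34 in FL-mut, beside -0.01 and 0.04 over all genes tested. It was 0.05 in SF-Nte against EV, with 10 above 0, and -0.03 in SF-mut against EV, with 7 above 0. In SF-Nte against FL the median was -1.24, with 15 below 0, and in SF-mut against FL-mut -0.93, with 16 below 0, beside -0.15 and -0.09 over all genes. With 1 library left out, the median was 1.08 to 1.65 in FL against EV and 0.77 to 1.44 in FL-mut against EV, lowest without FL replicate 3 and FL-mut replicate 3. In SF-Nte against EV it was -0.05 without EV replicate 2 and 0.40 without EV replicate 3, and in SF-mut against EV -0.58 without SF-mut replicate 1 and 0.30 without EV replicate 3, so neither had a stable sign. In SF-mut against FL-mut it was -1.61 without SF-mut replicate 1 and -0.76 without FL-mut replicate 3. EdgeR called 0 of the 17 in each of these comparisons. At an unadjusted p under 0.05 there were 9 in FL against EV (7.64% of all tested genes) and 5 in FL-mut against EV (10.5%). In SF-Nte against EV (7.23%) and SF-mut against EV (5.36%) there were 0. SF-Nte against FL gave 7 (13.2%) and SF-mut against FL-mut 6 (9.66%). DESeq2 called 1 in FL against EV (HMGCS1, beside 1.89% of all tested genes) and 3 in FL-mut against EV (2.14%). It called 1 in SF-Nte against FL (4.37%), 1 in SF-mut against FL-mut (1.46%), and 0 in SF-Nte (0.355%) and SF-mut (0.369%) against EV.

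FDFT1, squalene synthase, stood at 363, 1102 and 1244 CPM in FL, at 576, 572 and 2005 CPM in FL-mut, at 262, 307 and 252 CPM in SF-Nte, at 583, 416 and 166 CPM in SF-mut, and at 247, 236 and 313 CPM in EV. DHCR7, which makes cholesterol in the final step, stood at 13.9, 21.1 and 15.5 CPM in FL, at 21.2, 54.3 and 56.0 CPM in FL-mut, at 0, 0 and 9.96 CPM in SF-Nte, at 3.27, 6.16 and 6.15 CPM in SF-mut, and at 7.0, 4.37 and 5.34 CPM in EV. Both genes had every FL and FL-mut library above every EV library, as did 2.33% of tested genes.

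**Figure D4:**
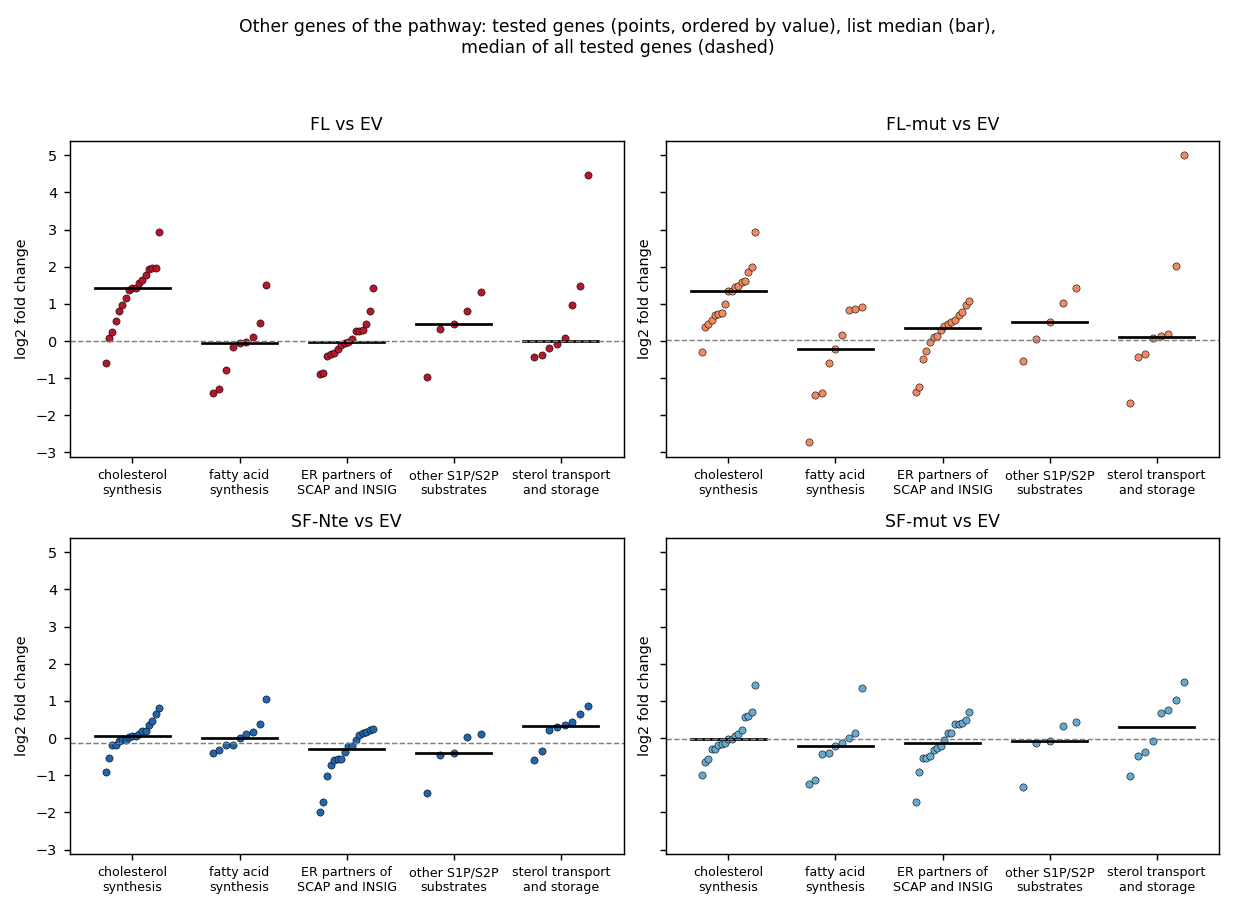
Log2 fold changes against EV of the tested genes of 5 other lists of the pathway, 1 panel per construct group, with points for genes, a bar for the list median and a dashed line for the median of all tested genes. The cholesterol synthesis list has medians of 1.42 for FL and 1.34 for FL-mut, and of 0.05 for SF-Nte and -0.03 for SF-mut.

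In FL and FL-mut the medians of the other lists lay closer to 0. Fatty acid synthesis targets of SREBP1, 9 tested of 14, had median log2 fold changes against EV of -0.05 under FL, -0.22 under FL-mut, 0.01 under SF-Nte and -0.23 under SF-mut, with 3, 4, 5 and 3 above 0. In that list ACACA, acetyl-CoA carboxylase, stood at 29.1 to 65.8 CPM in FL, 14.1 to 20.4 CPM in FL-mut, 29.9 to 65.9 CPM in SF-Nte, 28.7 to 68.6 CPM in SF-mut and 42.7 to 53.9 CPM in EV. SCD, the stearoyl-CoA desaturase, stood at 7.63 to 96.8 CPM in FL, 24.2 to 69.0 CPM in FL-mut, 137 to 187 CPM in SF-Nte, 44.1 to 71.8 CPM in SF-mut and 30.01 to 275 CPM in EV. ACACA was lower in all FL-mut libraries than in any other library, as were 0.798% of tested genes. The list of partners that hold, export or degrade SCAP and INSIG, 16 tested of 23, had medians of -0.03, 0.36, -0.30 and -0.13 in the same order. Not all its genes are such partners: it also holds KPNB1, FBXW7 and TMEM97, which were tested. SEC13, a coat protein of the vesicles that leave the endoplasmic reticulum, stood at 470 to 551 CPM in FL, 634 to 1200 CPM in FL-mut, 348 to 599 CPM in SF-Nte, 453 to 583 CPM in SF-mut and 564 to 782 CPM in EV. SEC23A, of the same coat, stood at 31.0 to 42.3 CPM in FL, 6.79 to 17.2 CPM in FL-mut, 0 to 13.2 CPM in SF-Nte, 0 to 14.7 CPM in SF-mut and 26.0 to 42.3 CPM in EV. SEC23A was thus lower in every FL-mut, SF-Nte and SF-mut library than in any FL or EV library, as were 0.281% of tested genes.

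The other substrates of the site-1 and site-2 proteases, 5 tested of 8, had medians of 0.47 under FL, 0.52 under FL-mut, -0.40 under SF-Nte and -0.09 under SF-mut. CREB3, a membrane-bound transcription factor, stood at 14.9 to 22.3 CPM in FL, 58.6 to 104.0 CPM in FL-mut, 22.6 to 39.8 CPM in SF-Nte, 16.4 to 55.5 CPM in SF-mut and 32.1 to 50.5 CPM in EV. HSPA5, in that list as a target of ATF6 and not as a substrate, stood at 45.1 to 194 CPM in FL, 54.5 to 227 CPM in FL-mut, 37.6 to 42.4 CPM in SF-Nte, 28.7 to 157 CPM in SF-mut and 47.4 to 56.5 CPM in EV. CREB3 was lower in every FL library than in any EV library, as were 8.17% of tested genes. Its log2 difference was 1.99 ± 0.47 for FL-mut against FL (edgeR adjusted p = 0.171) and 1.03 ± 0.45 for FL-mut against EV (edgeR adjusted p = 0.443). EdgeR called 0 genes of these 3 lists in any comparison with EV or in the test over the 5 groups. DESeq2 called 0 against EV, and SEC13, SEC23A and CREB3 over the 5 groups, where it called 9.63% of all tested genes. At an unadjusted p under 0.05 against EV, the fatty acid list, with 9 tested, had 1 gene in FL (7.64% of all tested genes). It had 2 in FL-mut (10.5%). In the protease list there were 2 of 5 tested in FL-mut (10.5%), the substrate CREB3 and HSPA5. Of the 16 tested SCAP and INSIG partners there were 2 in FL-mut (10.5%). Each short-form group had 1, where the share of all tested genes was 7.23% for SF-Nte and 5.36% for SF-mut.

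Sterol transport, storage and efflux genes, 8 tested of 22, had medians of -0.01 under FL, 0.12 under FL-mut, 0.31 under SF-Nte and 0.30 under SF-mut, and 1 of them, NPC1, was called over the 5 groups. NPC1, which exports cholesterol from late endosomes, stood at 46.5, 719 and 219 CPM in FL, at 158.6, 66.8 and 1192 CPM in FL-mut, at 15.4, 16.9 and 49.8 CPM in SF-Nte, at 22.9, 9.25 and 36.9 CPM in SF-mut, and at 13.5, 13.1 and 17.8 CPM in EV. All full-length libraries, wild type and mutant, lay above all EV libraries (2.33% of tested genes), and only FL replicate 1 lay below a short-form library. The edgeR adjusted p over the 5 groups was 0.028 (F = 11.2). It missed the threshold in 3 of the 15 fits without 1 library, at 0.067 without EV replicate 2, 0.070 without SF-Nte replicate 1 and 0.059 without SF-Nte replicate 2. The log2 fold change against EV was 4.46 ± 1.06 in FL (edgeR adjusted p = 0.114, and 0.044 without FL replicate 1) and 4.99 ± 1.08 in FL-mut (adjusted p = 0.079, and 0.032 without FL-mut replicate 2). FL replicate 1 and FL-mut replicate 2 are the lowest NPC1 libraries of their groups, so these lower values depend on which library was left out. SF-Nte against FL gave -3.60 ± 1.05 (edgeR adjusted p = 0.127) and SF-mut against FL-mut -4.32 ± 1.08 (adjusted p = 0.163). FL-mut against FL gave 0.53 ± 0.90 (interval -1.38 to 2.45, edgeR adjusted p = 0.878).

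The genes whose log2 CPM was most like INSIG1 over the 15 libraries were ATG4A (Pearson r = 0.90), SPPL2A (0.88), ODF2L (0.88), HMGCS1 (0.87) and NOA1 (0.87), of 6766 genes. HMGCS1, the enzyme that makes HMG-CoA, stood at 34.7, 107 and 132 CPM in FL, at 44.4, 6.79 and 75.9 CPM in FL-mut, at 11.6, 7.53 and 4.98 CPM in SF-Nte, at 16.3, 0 and 10.3 CPM in SF-mut, and at 6.0, 3.64 and 26.7 CPM in EV. Like INSIG1, it was highest in FL replicates 2 and 3. The cholesterol synthesis list had a median r of 0.71 with INSIG1, beside 0.093 over all genes. Among named genes r was 0.77 for NPC1, 0.69 for STARD4, 0.63 for SREBF2, 0.41 for ACAT2, 0.21 for SREBF1 and -0.24 for INSIG2.

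SREBF1 was most like SCG5 (0.80), SMUG1 (0.74), ITPK1 (0.73), PTRH2 (0.72) and MAP4 (0.72), and SREBF2 most like TACC3 (0.90), MYO1C (0.89), PDLIM5 (0.89), LRRFIP1 (0.86) and NXF1 (0.85). No gene of the cholesterol synthesis list was among these 10. These correlations describe 15 libraries that share groups, depth and zeros, and low counts such as those of SREBF2 put shallow libraries together.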

How the data were processed

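Raw counts for 15 libraries, whole numbers by gene symbol, are what the authors deposited. Per the labels' protocols, Trizol RNA was enriched for mRNA on magnetic beads and made into barcoded Oxford Nanopore cDNA-PCR libraries. GRCh38 is the build in the submitters' processing notes. Aligner, counting tool, annotation and strand setting: not given in the sources used here. PCR amplification without molecular identifiers can alter a gene's share, and long transcripts such as those of SREBF1 and SREBF2 may be read in part.

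Groups and replicate numbers came from the sample titles. No replicates were merged, since the counts of any 2 libraries of a group differed beyond sampling noise (chi-square per gene 4.23 or more). Counts were tested with edgeR 4.0.16 (limma 3.58.1, R 4.3.3): filterByExpr (minimum count 10, minimum total 15) kept 6767 genes, libraries were scaled by TMM, and a robust quasi-likelihood fit of the 15 libraries took the 5 groups as coefficients (10 residual degrees of freedom). There were 10 contrasts and a test over the 5 groups, each adjusted by Benjamini-Hochberg over all tested genes at 0.05. Standard errors are the log2 fold change over the square root of F, and intervals are at 95%. The steps were tested on simulated data. Alternatives were DESeq2 size factors, library totals, no filter, DESeq2 1.42.0, non-robust dispersion, a replicate block, each library left out, and fits of the 2 groups alone. For FL and EV, the deviations of same-number libraries correlated at 0.42, 0.17 and 0.55 over 1879 genes, all over 0.1, which met the criterion for pairing from the data and not from the labels. FL and SF-mut, which no contrast sets against each other, also met it (0.248, 0.238 and 0.411), and no other 2 groups did. Values in the text come from the fit without the block unless the block is named. Similar genes were ranked by Pearson r of log2 CPM with a prior count of 2. Positions are from GENCODE v29 (GRCh38), and promoters from RefSeq (GRCh38.p14).

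Genes named beyond the 9 are those past the threshold in each list (up to 4), or the 2 of lowest p, the 5 most like INSIG1, SREBF1 and SREBF2, and ZBTB18. Those named by p were picked from the same levels, so non-overlap of their libraries only describes, whatever share of genes stands beside it. The 9 genes, the lists and the tests were chosen with earlier results of these data known, so a pattern already seen in them is no independent support.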

Additional observations from a re-analysis of the deposited data

How the results depend on the processing

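For the 9 genes, edgeR's count of members called was 0 in each of the 10 contrasts and 1 (INSIG1) over the 5 groups, and it changed as follows. In FL against EV it was 1 with no filter on low counts and 1 with DESeq2. In SF-Nte against FL it was 1 with no filter, with DESeq2 and in the fit of the 2 groups alone, and 0 to 1 when a library was left out (INSIG1 without FL replicate 1, adjusted p = 0.047). Over the 5 groups it was 0 with the replicate block (adjusted p = 0.057), and 0 to 1 over the 15 fits without 1 library, at 0.026 to 0.168. The INSIG1 adjusted p over the 5 groups was 0.042 with DESeq2 size factors, 0.035 with library totals, 0.037 with non-robust dispersion and 1.15e-05 with DESeq2. The fit with no filter called 5.73% of 18485 genes over the 5 groups and DESeq2 9.63% of 6767, so more genes of all kinds passed in both. Where a call was lost with 1 library fewer, the cause was not tested. The replicate block changed no other call among the genes and contrasts given above.

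Among single genes, INSIG1 changed sign in contrasts that did not pass: SF-Nte against EV became 0.04 without EV replicate 3 and 0.16 without SF-Nte replicate 1, and SF-mut against SF-Nte became 1.13 without SF-Nte replicate 2 and 0.05 without SF-mut replicate 2, with ranges of -2.01 to 0.16 and -1.54 to 1.13 over all libraries left out. INSIG1 in FL against EV stayed at 3.11 to 3.95 on the log2 scale and INSIG2 in SF-Nte against EV at 1.41 to 2.36 when each library was left out. Scaling by library totals moved the median of all genes by over 0.1 in several contrasts, to -0.25 in SF-Nte against EV, -0.32 in SF-Nte against FL, 0.14 in FL-mut against EV and 0.20 in SF-mut against SF-Nte. With that scaling INSIG2 in SF-Nte against EV was 1.67, and the cholesterol list medians near 0 changed sign, to -0.05 in SF-Nte and 0.01 in SF-mut against EV. NPC1 passed in FL and FL-mut against EV, SF-Nte against FL and SF-mut against FL-mut with DESeq2 and with no filter. Depth limits the short forms most: a count of 0 there allows up to 9.25 CPM, close to the EV mean of INSIG1.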
